A study of Mus musculus with 4 samples.

Results

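Glutamate and GABA (γ-aminobutyric acid) receptor subunit genes were followed in mouse embryonic stem (ES) cells in which Fmr1, the gene of the RNA-binding protein FMRP, was knocked down. The genes were taken by symbol, as every array feature annotated with a single gene of the AMPA (Gria), kainate (Grik), NMDA (Grin), delta (Grid), metabotropic glutamate (Grm), GABA-A and GABA-rho (Gabr) or GABA-B (Gabbr) families. This gave 40 of the 19083 genes measured, on 88 of 45214 features, and the rule itself uses no measured value. Some other genes of these families were not analysed here. Of the 40 genes, 18 were read by 1 feature and 22 by 2 or more.

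In shFmr1 cells the hairpin RNA was aimed at exon 1 of Fmr1, and in shCT cells it was a random sequence. Both came from a lentivirus that also encodes GFP, and both were sorted, mixed populations rather than clones, so a knockdown and not a deletion was studied. On each of 4 Agilent 2-colour arrays, numbered as replicates 1 to 4, an shFmr1 RNA was set against an shCT RNA, each from 0.2 µg of total RNA with an integrity number of 9. Dyes were balanced, with the shFmr1 RNA in the red dye Cy5 on replicates 1 and 3 and in the green dye Cy3 on replicates 2 and 4. Nothing in the labels says that the replicates were separate cultures, so the p-values cover only the spread between these arrays, which may be technical.

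Ionotropic glutamate receptors are cation channels that carry fast excitation, and they are built from AMPA, kainate or NMDA receptor subunits. Metabotropic glutamate receptors signal through G proteins, and the exaggerated signalling of the group I members is a much-studied feature of the fragile X syndrome, which follows from loss of FMRP. GABA-A receptors are chloride channels made of subunits of several classes, and GABA-B receptors are pairs of G-protein-coupled subunits. Most of these genes are known for their use in neurons. Work on mouse ES cells has also described GABA-A receptors that restrain proliferation and a part for the metabotropic receptor mGlu5 in self-renewal.

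Values below are log ratios read as log2, and their likely direction is shFmr1 over shCT, since neither the base nor the direction is stated. The targeted gene, Fmr1, read -0.86, -1.65, -1.34 and -1.61 on replicates 1 to 4, a mean of -1.37 ± 0.36 (SD, n = 4), which is 38.8% of control if the ratios are log2 of shFmr1 over shCT. It was below 0 on each array. The exact two-sided sign-flip permutation test gave p = 0.125, the smallest that 4 arrays allow, and the limma adjusted p over all genes was 0.156. In whole populations of cells, a change in the RNA of each cell cannot be told apart from a change in the number of cells that make it.

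No receptor subunit gene passed the test. With limma and Benjamini-Hochberg adjustment, 0 of the 40 receptor genes and 0% of all 19083 genes had an adjusted p under 0.05, and the adjusted p of the receptor genes ran from 0.973 to 0.999. At an unadjusted limma p under 0.05 there were 3 receptor genes, Grik4 above 0 and Grin3b and Grm6 below 0, beside 3.77% of all genes. The receptor means lay between -0.25 and 0.26, with a median of -0.02 beside -0.001 for all genes. A mean above 0 was found for 15 of the 40, and below 0 for 25, while 49.5% of all genes had a mean above 0. One of the 25, Gabra6 at -0.001, turned sign under centring, scaling and quantile normalization.

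The 95% confidence intervals give the size of change that these arrays leave possible. The interval lay within -1 and 1 for all 40 receptor genes, as it did for 98% of all genes. It lay within -0.5 and 0.5 for 39 of the 40, beside 88.1% of all genes, and the exception was Grik4 with an upper bound of 0.503. The median SD over the arrays was 0.163 for the receptor genes and 0.205 for all genes. These intervals describe ratios, and how far a ratio on a dim feature follows the RNA was not tested.

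The 3 genes at the edges of this range are shown with the 250 bases before their RefSeq gene start in GRCm38.p6, because the promoters differ in base composition. CpG pairs are in capitals, and sequences are written 5′ to 3′ along the gene. Grik4 lies on the minus strand at chr9:42944372-42944621, where 36 CpG pairs and a GC content of 69.6% were counted. Grin3b lies on the plus strand at chr10:79970474-79970723 with 2 CpG pairs and 46.0% GC, and Grm6 on the plus strand at chr11:50850435-50850684 with 4 CpG pairs and 47.6% GC.
Grik4: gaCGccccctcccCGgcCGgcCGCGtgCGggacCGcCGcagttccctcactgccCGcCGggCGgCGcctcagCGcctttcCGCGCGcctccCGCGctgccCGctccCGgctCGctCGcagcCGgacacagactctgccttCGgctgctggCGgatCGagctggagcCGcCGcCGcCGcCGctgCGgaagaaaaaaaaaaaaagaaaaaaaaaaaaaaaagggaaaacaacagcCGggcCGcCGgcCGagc
Grin3b: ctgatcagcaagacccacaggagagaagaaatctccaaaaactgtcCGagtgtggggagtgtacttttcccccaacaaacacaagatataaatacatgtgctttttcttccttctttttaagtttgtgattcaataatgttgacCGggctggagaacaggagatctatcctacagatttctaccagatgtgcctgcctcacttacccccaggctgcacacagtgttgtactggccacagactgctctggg
Grm6: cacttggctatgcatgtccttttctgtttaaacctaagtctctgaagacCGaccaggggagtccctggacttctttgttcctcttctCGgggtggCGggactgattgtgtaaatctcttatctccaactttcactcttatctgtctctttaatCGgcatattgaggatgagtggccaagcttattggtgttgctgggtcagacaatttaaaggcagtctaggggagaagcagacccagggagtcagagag

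CpG-rich promoters are common at genes used in many tissues and at developmental genes, and CpG-poor ones at genes used in few. A RefSeq promoter was at hand for 30 of the 40 receptor genes, and their count of CpG pairs in the 250 bases, taken in the richest window of a gene, ran from 0 to 42. The median was 10.5 beside 6.0 over 27025 genes, and 6 of the 30 held at least 20 CpG pairs, beside 19.7% of all genes. The median log2 ratio was -0.04 for these 6 genes and -0.03 for the other 24. No test was run on these medians.

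REST is a repressor that keeps many neuronal genes silent outside neurons, and it binds a bipartite element called RE1. The letters TTCAGCACC and GGACAG, from its left and right parts, were searched on both strands of all 32851 promoter windows. TTCAGCACC was found in 0.301% of the windows, and among the receptor genes only before Grm2. GGACAG was found in 18.7% of the windows, and in at least 1 window of 11 of the 30 receptor genes. Of the receptor genes, 5 had more than 1 window, so this count of genes is not comparable with the share of windows. Both strings of letters were found in 0.0487% of the windows. Grm2, on the minus strand, holds both, 7 bases apart, and the stretch at chr9:106656300-106656359 is shown with them in capitals. The search set no order or distance for the left and right parts, and a match of letters is not a measured site.
Grm2: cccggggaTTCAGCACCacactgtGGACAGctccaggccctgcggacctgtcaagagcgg

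AMPA receptor subunits form the channels of fast excitatory transmission. Gria2, whose edited subunit blocks calcium entry, read -0.09, -0.18, 0.17 and -0.17 on replicates 1 to 4, with a mean of -0.07 ± 0.16 (SD, n = 4). Gria3 read 0.10, 0.24, 0.16 and -0.06, with a mean of 0.11 ± 0.13. Each had 1 array of the opposite sign to the rest. Gria1, a subunit moved into synapses during plasticity, averaged -0.004 ± 0.16. Gria4 averaged 0.03 ± 0.07, and only its replicate 2, at 0.13, stood above 0. The AMPA means were all smaller than the SD of their own arrays.

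Kainate receptors act on both sides of the synapse, and Grik4 and Grik5 encode their high-affinity subunits. Grik4 read 0.21, 0.05, 0.52 and 0.26 on replicates 1 to 4, a mean of 0.26 ± 0.19 (SD, n = 4). It was above 0 on each array, and its largest value was on replicate 3, where shFmr1 RNA carried Cy5. The interval ran from 0.02 to 0.50 and the limma adjusted p was 0.973. Grik1 read 0.38, -0.01, 0.33 and -0.27, a mean of 0.11 ± 0.30. Both Grik1 arrays with shFmr1 in Cy5 were high and neither of the others was, and its dye effect had an unadjusted p under 0.05. Grik2, Grik3 and Grik5 averaged -0.05 ± 0.16, -0.05 ± 0.17 and -0.06 ± 0.14, each with arrays of both signs.

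NMDA receptors need glutamate and a co-agonist, and pass calcium. The GluN2 subunits bind glutamate, and Grin2b and Grin2d are the ones best known from the embryonic brain. Grin2b read -0.03, -0.16, 0.01 and -0.003, with a mean of -0.05 ± 0.08 (SD, n = 4). Grin2d read 0.26, -0.15, -0.34 and -0.41, with a mean of -0.16 ± 0.30. Grin2d was below 0 on 3 arrays and above 0 on replicate 1. Without replicate 1 and with the dye term kept, its mean was -0.31. Grin2c, known from the cerebellum, read 0.05, -0.31, 0.50 and 0.08, a mean of 0.08 ± 0.33, and Grin2a averaged 0.08 ± 0.17.

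The GluN3 subunits bind glycine and lower the calcium entry of the channels they join. Grin3b read -0.33, -0.34, -0.17 and -0.15 on replicates 1 to 4, a mean of -0.25 ± 0.10 (SD, n = 4). It was below 0 on each array and in both dye orientations, with an interval from -0.47 to -0.03 and a limma adjusted p of 0.973. Its relative Grin3a averaged -0.02 ± 0.27, with 0.16 and 0.26 on the Cy5 arrays and -0.28 and -0.22 on the Cy3 arrays. Grin3a and Grik1 were the 2 of 40 receptor genes whose dye effect had an unadjusted limma p under 0.05, beside 6.49% of all genes, and no gene passed the adjusted test of the dye effect. Grid1, a delta subunit that binds cerebellins across the synapse, averaged -0.02 ± 0.19.

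**Figure D1:**
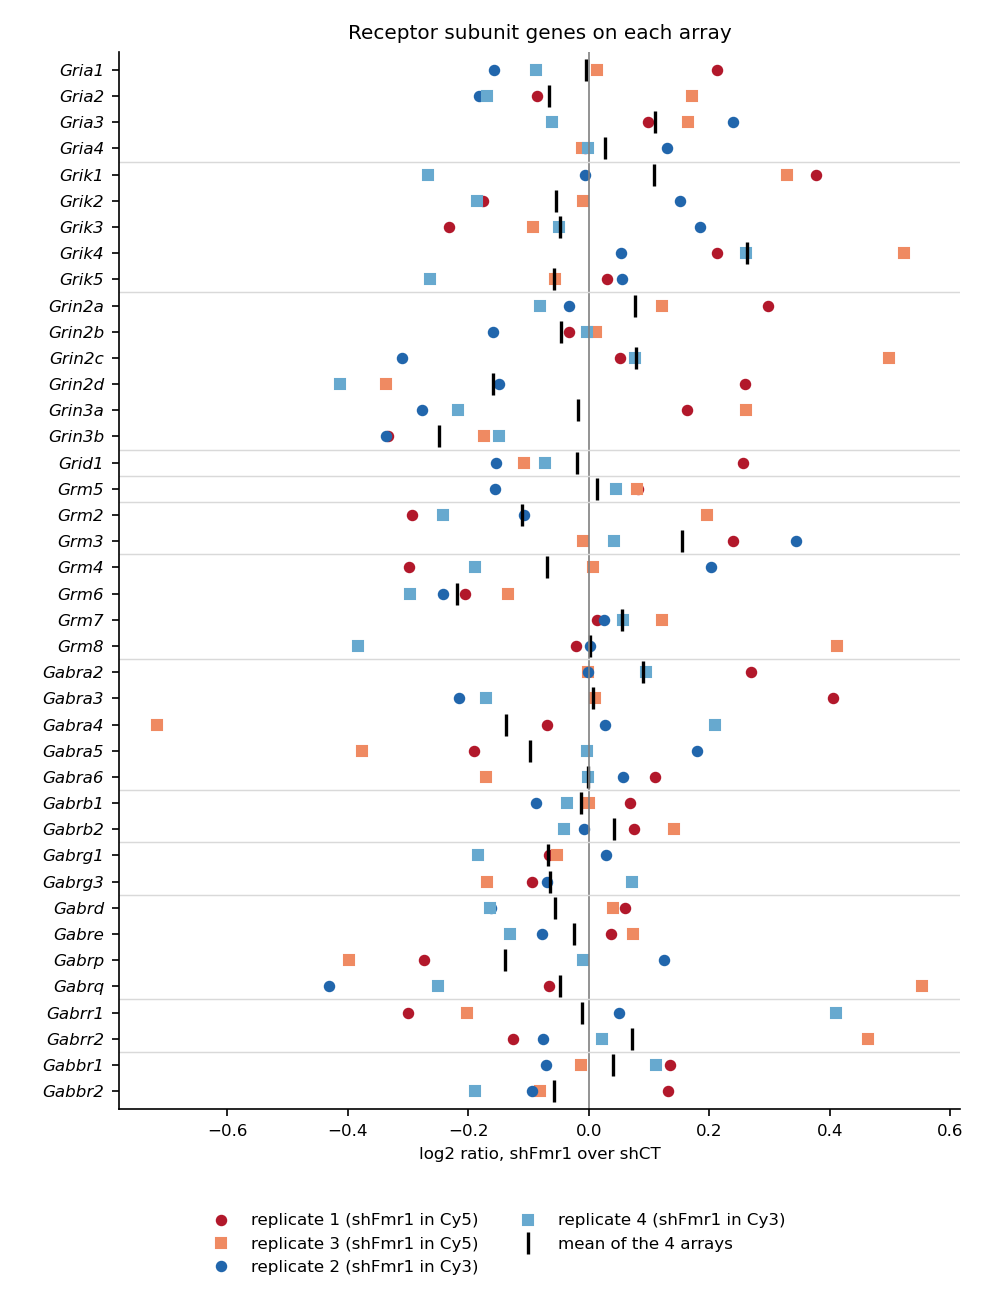
Log2 ratios (shFmr1 over shCT, likely direction) of the 40 receptor subunit genes on each of the 4 arrays, with red points where the shFmr1 RNA was in Cy5, blue ones where it was in Cy3, and a black bar at the mean. The points of Grik4 and Grm7 all lie above 0 and those of Grin3b and Grm6 all lie below 0.

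Of the metabotropic receptors, Grm5 encodes mGlu5, a group I receptor that couples to phospholipase C. It read 0.08, -0.15, 0.08 and 0.04 on replicates 1 to 4, with a mean of 0.01 ± 0.11 (SD, n = 4) and an interval from -0.20 to 0.23. Replicate 2 stood below 0 and the other arrays slightly above it. The group II receptors lower cyclic AMP. Grm3 read 0.24, 0.34, -0.01 and 0.04, a mean of 0.15 ± 0.17, and Grm2 averaged -0.11 ± 0.22. The Grm3 mean came from replicates 1 and 2, which differ in dye.

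Group III receptors also lower cyclic AMP, mostly at presynaptic terminals, except Grm6, which serves the ON bipolar cells of the retina. Grm6 read -0.20, -0.24, -0.13 and -0.30 on replicates 1 to 4, a mean of -0.22 ± 0.07 (SD, n = 4). It was below 0 on each array, with an interval from -0.42 to -0.02 and a limma adjusted p of 0.973. Grm8 read -0.02, 0.002, 0.41 and -0.38, a mean of 0.003 ± 0.32, with replicates 3 and 4 far apart. Grm7 averaged 0.05 ± 0.05 and Grm4 averaged -0.07 ± 0.22.

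The same sign on all 4 arrays was found for Grik4, Grm7, Grin3b and Grm6, that is 4 of the 40 receptor genes, beside 11.3% of all genes.

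GABA-A alpha subunits form the GABA and benzodiazepine binding sites with their neighbours. Gabra4 read -0.07, 0.03, -0.72 and 0.21 on replicates 1 to 4, a mean of -0.14 ± 0.40 (SD, n = 4). Its value on replicate 3 was the lowest of any receptor gene on any array, and without it, with the dye term kept, the mean was 0.02. Gabra5, known for receptors outside synapses in the hippocampus, read -0.19, 0.18, -0.38 and -0.003, a mean of -0.10 ± 0.24. In both genes the Cy5 arrays were lower than the Cy3 arrays. Gabra2, Gabra3 and Gabra6 averaged 0.09 ± 0.13, 0.01 ± 0.28 and -0.001 ± 0.12, and the beta subunits Gabrb1 and Gabrb2 averaged -0.01 ± 0.07 and 0.04 ± 0.08.

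Gamma subunits help to cluster receptors at synapses, and delta subunits replace them in receptors that carry tonic current. Gabrg1 read -0.07, 0.03, -0.05 and -0.18, a mean of -0.07 ± 0.09 (SD, n = 4), and Gabrg3 averaged -0.06 ± 0.10. Gabrd, the delta subunit, read 0.06, -0.16, 0.04 and -0.16, a mean of -0.06 ± 0.12. The 2 Cy5 arrays of Gabrd were above 0 and the Cy3 arrays below it. Gabrp, the pi subunit, known mainly from tissues outside the brain, read -0.27, 0.13, -0.40 and -0.01, a mean of -0.14 ± 0.24. Gabrq, the theta subunit, read -0.07, -0.43, 0.55 and -0.25, a mean of -0.05 ± 0.43 and the largest SD of the receptor genes. These minor subunits, with Gabre (-0.02 ± 0.10), all had means below 0, where 50.5% of all genes did. The mean of each of these subunits was smaller than the SD of its arrays.

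The rho subunits form GABA channels best known from the retina. Gabrr1 averaged -0.01 ± 0.32 and Gabrr2 averaged 0.07 ± 0.27 (SD, n = 4). In the GABA-B receptor, the subunit from Gabbr1 binds GABA and the one from Gabbr2 couples to G proteins. Gabbr1 read 0.13, -0.07, -0.01 and 0.11, a mean of 0.04 ± 0.10, and Gabbr2 read 0.13, -0.09, -0.08 and -0.19, a mean of -0.06 ± 0.14. Neither partner of the pair kept 1 sign over the arrays.

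By family, the 16 ionotropic glutamate subunit genes had a median of -0.02 and the 7 metabotropic receptor genes one of 0.003. The 15 GABA-A and rho subunit genes had a median of -0.02, with 11 means below 0, that of Gabra6 included, beside 50.5% of all genes. None of the 15 had an unadjusted limma p under 0.05, beside 3.77% of all genes. Many GABA-A genes are neighbours in GRCm38.p6, in clusters that arose by duplication. In the cluster of Gabrg1, Gabra2, Gabra4 and Gabrb1 the means were -0.07, 0.09, -0.14 and -0.01. For the X-linked neighbours Gabre, Gabra3 and Gabrq they were -0.02, 0.01 and -0.05, and for Gabrg3 and Gabra5 they were -0.06 and -0.10. Gabra6 and Gabrb2 read -0.001 and 0.04, and Gabrr2 and Gabrr1 read 0.07 and -0.01. Each of these means was smaller than the SD of its own arrays.

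Signs on the arrays were also compared between the dyes of the shFmr1 RNA, although no receptor gene passed the adjusted test of the dye effect. Gria1, Grik1, Grin2a, Grin3a, Gabra3, Gabrb1, Gabrb2, Gabrd and Gabre were above 0 on both Cy5 arrays and below 0 on both Cy3 arrays, 9 of the 40 receptor genes beside 9.24% of all genes. The converse held for Gabra4 and Gabrr1, 2 of the 40 beside 7.69% of all genes. Over the 40 receptor genes, pairs of arrays with matching dyes had Pearson correlations of 0.230 and 0.278, and pairs with swapped dyes had -0.283 to -0.059. Over all genes the same correlations were 0.063 and 0.044, and -0.053 to -0.023. The points are genes, which share arrays and dyes and are not replicates, so these are descriptions. The balanced dyes cancel in the means, and Grik4, Grin3b and Grm6 kept their sign in both orientations.

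**Figure D2:**
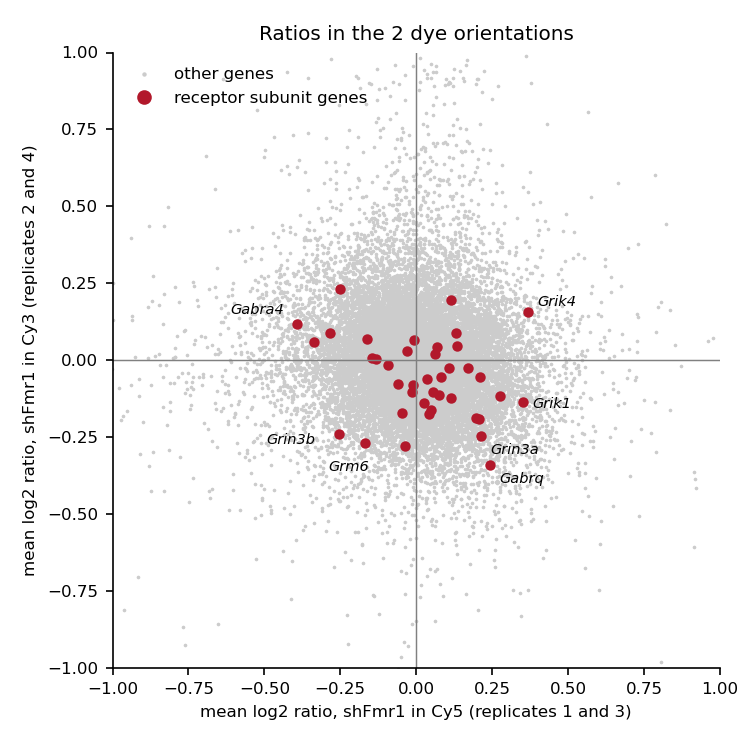
Mean log2 ratio of each gene on the 2 arrays with shFmr1 in Cy5 (horizontal) against the 2 arrays with shFmr1 in Cy3 (vertical), with receptor subunit genes in red and other genes in grey, and 247 genes outside the drawn range of -1 to 1. Of the 40 receptor genes, 26 lie in the quadrants where the orientations have opposite signs, as do 55.2% of all genes, among them Grik1, Grin3a and Gabra4.

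Many receptor values were not unique on their array, a pattern noticed after the values had been seen. A ratio is called recurring here where another feature of the same array holds exactly the same deposited number, and up to 54 features shared 1 number. Of the 352 receptor values (88 features on 4 arrays), 320 recurred, or 90.9%, against 57.4% of the values of all features with 1 gene symbol. By array the receptor share ran from 87.5% to 93.2%. For 73 of the 88 receptor features the values recurred on all 4 arrays, or 83.0%, against 42.7% of all features with 1 symbol. For 4 of the 88 they recurred on none, or 4.55%, against 30.2%.

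Those 4 features read Grik5, Grin2d, Gabbr1 and Gabbr2. In 26 receptor genes every value recurred, in 12 some did, and in Grik5 and Grin2d none did. All 4 values of Grin3b and all 4 of Grm6 recurred, as did 2 of the 4 values of Grik4. Recurrence also varied between the gene lists. It was 4.55% for 8 ES cell markers, 27.6% for 8 fibroblast markers, 63.0% for 13 neuron markers, 91.7% for 7 astrocyte and oligodendrocyte markers and 95.8% for the 5 glycine receptor subunit genes. These shares are over the values of all features, so genes with many features weigh more. Gfap and Mbp each held 12 of the 33 astrocyte and oligodendrocyte features, and Col1a1 and Acta2 held 12 and 14 of the 38 fibroblast ones. Of single genes chosen after their values were seen, Fmr1, Pou5f1, Sox2 and Nanog had 0% recurring values, while Alb of the liver and Myh6 of the heart had 100%, and the widely expressed Actb and Gapdh had 25% and 75%.

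Signal level is not in the values used, so the part of low or saturated signal in the recurrence was not tested. Recurrence also fell with the size of a ratio over all features, from 68.3% of values under 0.25 in size to 61.2% between 0.25 and 0.5, 28.4% between 0.5 and 1, and 1.14% of larger ones. Within the same size classes the receptor values recurred at 93.8%, 89.4% and 53.3%, with no receptor value in the largest class. At each size that held receptor values, their share was thus above that of all features.

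**Figure D3:**
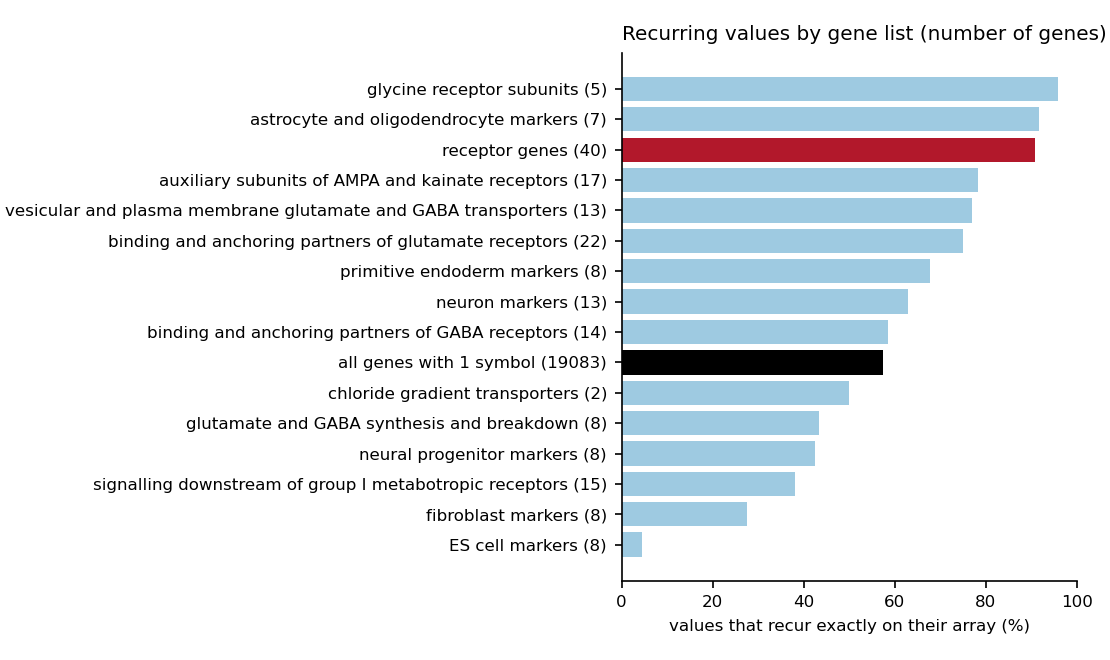
Share of values (percent) that recur exactly on their own array, for the receptor genes (red), for all genes with 1 symbol (black) and for the pathway and marker lists (blue), with the number of genes in brackets. The receptor genes, at 90.9%, lie near the glycine receptor subunits at 95.8% and far from the ES cell markers at 4.55%.

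When only features without any recurring value were fitted, an alternative chosen after seeing the data, 10170 features and 7546 genes were left. Grik5, Grin2d, Gabbr1 and Gabbr2 were the 4 receptor genes among them. Grik5 read 0.03, 0.06, -0.06 and -0.26 on replicates 1 to 4, with a mean of -0.06 ± 0.14 (SD, n = 4). Grin2d kept its mean of -0.16 ± 0.30, and the remaining features of Gabbr1 and Gabbr2 averaged -0.03 ± 0.21 and -0.06 ± 0.43. None of the 4 had an unadjusted limma p under 0.05, beside 5.10% of the 7546 genes, and their adjusted p was 0.992. Since large ratios recur less often, this choice of features is not independent of the ratio.

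**Figure D4:**
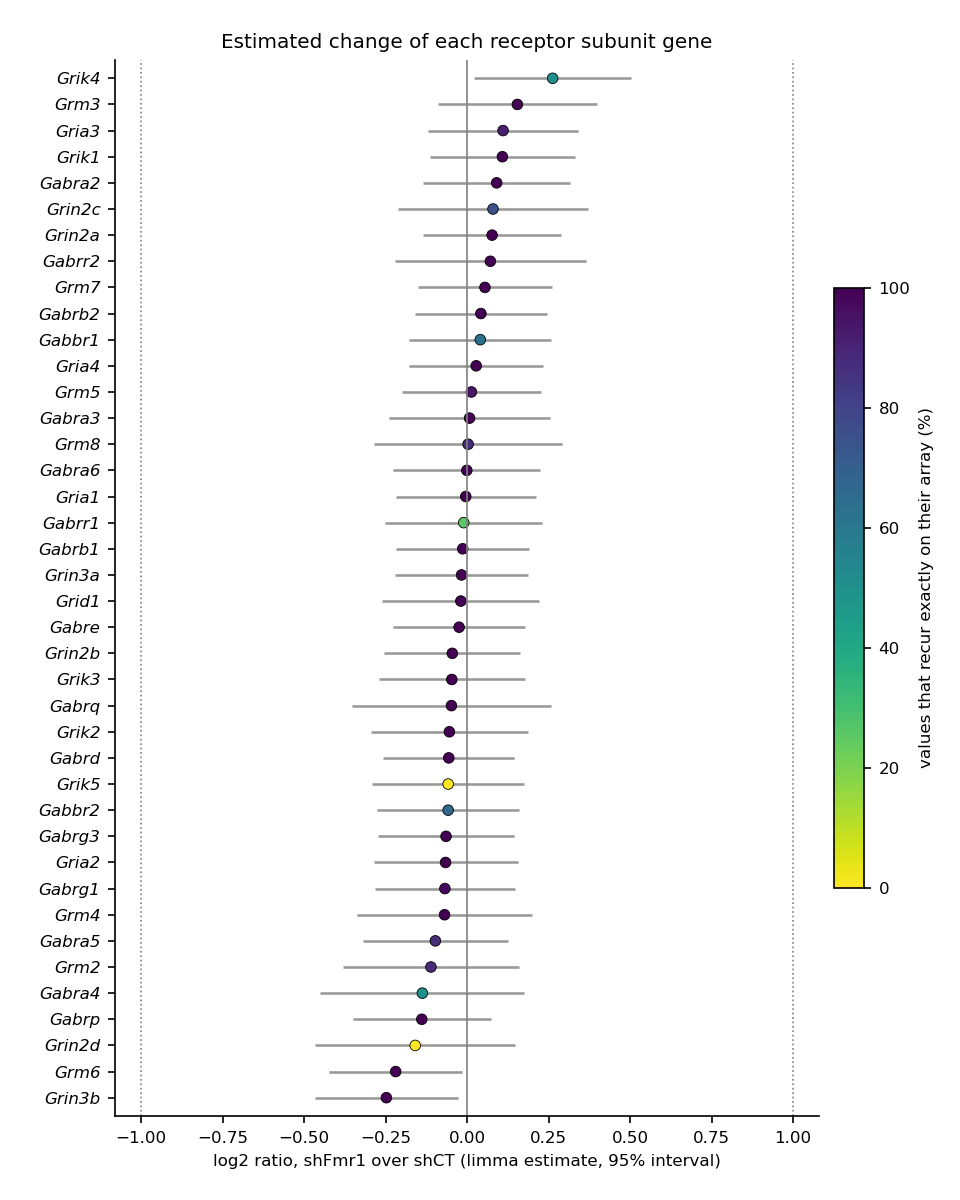
Mean log2 ratio (shFmr1 over shCT, likely direction) of each of the 40 receptor subunit genes over 4 arrays, with its 95% confidence interval from limma as a grey bar, dotted lines at -1 and 1, and the share of recurring values (percent) as the colour of the point. The intervals of Grik4, Grin3b and Grm6 leave out 0, and those of Grin2d and Grik5, the genes with no recurring value, include it.

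Features of 1 gene gave a measure of the precision of a gene mean. Among the 22 receptor genes with 2 or more features, the range of the feature means had a median of 0.191 and reached 0.557, and 16 genes had features of both signs. Neither the range nor this count was set beside all genes. The widest range belonged to Gabrg1, with 11 features, 10 of them of the same transcript accession. Their means ran from -0.35 to 0.21, with an SD of 0.173, and on single arrays the SD over the features was between 0.117 and 0.318. Grik4, Grin3b and Grm6 each rest on 1 feature. Tested singly, 1 of the 88 features, of Gabrg1, had an unadjusted limma p under 0.05, and the smallest adjusted p was 0.984. The matching share over all features was not computed, so this count cannot be read as few or many.

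**Figure D5:**
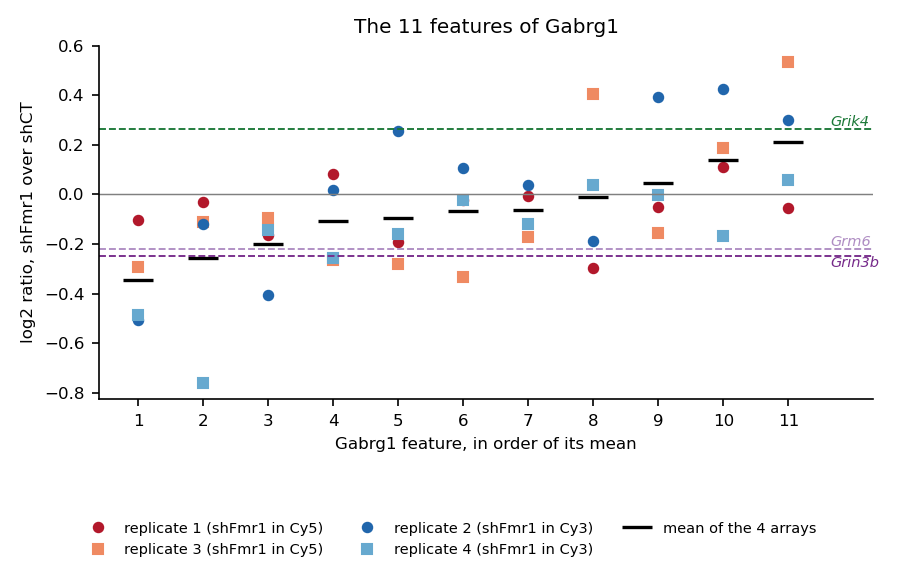
Log2 ratios of the 11 features of Gabrg1 on the 4 arrays, with the mean of each feature as a black bar and the gene means of Grik4, Grin3b and Grm6 as dashed lines. The Gabrg1 feature means spread from -0.35 to 0.21, and the lines of the other genes lie at 0.26, -0.25 and -0.22.

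The other genes of glutamate and GABA signalling were read from lists by function. Of 8 genes of synthesis and breakdown, 13 vesicular and membrane transporters, 17 auxiliary subunits, 22 glutamate receptor partners, 14 GABA receptor partners, 15 genes downstream of group I receptors, 2 chloride transporters and 5 glycine receptor subunits, 0 passed the adjusted p, and 0 had an unadjusted limma p under 0.05 in any list, beside 3.77% of all genes. The list medians ran from -0.05 for the transporters to 0.07 for the chloride transporters. The genes with the smallest p were Abat, which breaks down GABA (0.27 ± 0.38, SD, n = 4), and Slc6a11, a GABA transporter (-0.19 ± 0.18). Among the partners they were Cbln2, a cerebellin (0.25 ± 0.36), and Kctd12b (-0.24 ± 0.28), a relative of GABA-B auxiliary subunits. Prkca, a protein kinase C, read -0.23 ± 0.54, Slc12a2, a chloride importer, 0.12 ± 0.41, and Glra4, a glycine receptor subunit, 0.10 ± 0.31. Neto2, an auxiliary kainate receptor subunit, averaged 0.99 ± 1.92, which came from replicate 4 at 3.86. Without replicate 2 and with the dye term kept, Neto2 averaged 1.98. There replicate 4 was the only array with shFmr1 in Cy3, so the dye term fitted it exactly. A test in that fit could not weigh how far replicate 4 stood from the others.

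Marker lists cover the other cells that such a culture could hold. Ratios give no level, so the labelled cell type could not be checked by how strongly its markers were expressed. Neuron markers had a median of 0.002, and 1 of 13, Stmn2 (-0.27 ± 0.11, SD, n = 4), had an unadjusted limma p under 0.05. Of 8 neural progenitor markers and of 7 astrocyte and oligodendrocyte markers, 0 did, with medians of 0.07 and -0.04, and their smallest p belonged to Nes (-0.46 ± 0.49) and Sox10 (0.18 ± 0.13). Of the 8 primitive endoderm markers 5 did, all below 0, beside 3.77% of all genes, with a list median of -0.27. Col4a1 and Sparc, of the basement membrane, averaged -0.39 ± 0.37 and -0.51 ± 0.52, and the transcription factors Foxa2 and Gata6 averaged -0.44 ± 0.47 and -0.29 ± 0.38. The rest of the list was named after its values were seen. Dab2, also with an unadjusted limma p under 0.05, read -0.16, -0.05, -0.41 and -0.41 on replicates 1 to 4. Sox17 read -0.33, -0.03, -0.07 and -0.16, so both genes were below 0 on each array. Gata4 and Afp averaged 0.05 ± 0.15 and 0.01 ± 0.10. For the dye effect 4 of the 8 had an unadjusted limma p under 0.05, beside 6.49% of all genes. These were Col4a1, Sparc, Foxa2 and Gata6, and not Dab2 or Sox17. On the Cy5 arrays Col4a1 read -0.77 and -0.64, Sparc -0.80 and -1.02, Foxa2 -0.85 and -0.75, and Gata6 -0.75 and -0.44. On the Cy3 arrays they read -0.02 and -0.14, 0.16 and -0.40, -0.34 and 0.19, and 0.04 and 0.01, in that order. The ES cell markers had a median of 0.05, with 1 of 8, Nanog (0.33 ± 0.52), under that p, and the fibroblast markers one of 0.22, with 1 of 8, Postn (0.22 ± 0.13). The part of endoderm or fibroblast-like cells in the receptor ratios was not tested.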

How the data were processed

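Total RNA of shFmr1 and shCT ES cells was compared on 4 Agilent 2-colour arrays, labelled with the Low RNA Input QuickAmp protocol, per the labels. The authors deposited 1 log ratio per feature and array, read here as log2. The largest absolute value, 5.84, exceeds the 4.82 that a log10 ratio of raw 16-bit signals allows, but natural logs remain possible. The array medians lay within 0.023 of 0. How the values were corrected and normalized is not given in the sources read, and no channel intensity was analysed here, so dim features were not filtered, and the number of arrays limits the precision. Fmr1 was negative on each array although the dyes alternate, so the ratios had been turned to 1 direction, and Fmr1 is no independent check of it.

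Features were named from a 2016 platform annotation (33649 with 1 symbol, 56 with several, 11509 with none). Of these, 33513 were matched by gene identifier, and 0 symbols changed. Features were averaged per gene and array. All genes were fitted with limma 3.58.1 (lmFit and eBayes, R 4.3.3), with the ratio and a dye effect as coefficients and Benjamini-Hochberg adjustment at 0.05 over 19083 genes. Promoters came from RefSeq (GRCm38.p6).

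The receptor genes and the lists were chosen with earlier results of these data known. Values on each array are given for receptor genes with an unadjusted p under 0.05, the 4 smallest p in each direction, the 4 largest SDs, a set of well-known subunits, and genes whose features differ by more than 0.5 with opposite signs. From each list, up to 4 genes with an unadjusted p under 0.05 are named, otherwise the 1 with the smallest p. Fmr1 is named in any case, and Grik5 was added after its values were seen. As alternatives the dye term was dropped, the arrays were centred, scaled or quantile normalized, and other choices were tried, namely other summaries of features, a robust variance model, another threshold, single dye orientations, leaving out each array, and features without recurring values.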

Additional observations from a re-analysis of the deposited data

Results flagged for a closer look

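In 5 of 84 results tested, which were genes and medians of gene lists, 1 of the 4 arrays stood farther from the others than Dixon's 95% critical value allows, where chance gives about 4.2. Gria4, an AMPA receptor subunit, read 0.13 on replicate 2 and between -0.01 and -0.001 on the others. Grm5 read -0.15 on replicate 2 and between 0.04 and 0.08 on the others. Among the pathway genes, Neto2 read 3.86 on replicate 4 and between -0.11 and 0.12 on the others, and Cbln2 read 0.78 on replicate 4 against 0.02 to 0.14. Kctd12b read -0.66 on replicate 3 against -0.15 to -0.06. Not every gene of the lists was among the results tested. Of the others, named after their values had been seen, Shisa7 read -2.89 on replicate 1 and between -0.09 and 0.06 elsewhere. Nrxn3 read 2.17 on replicate 4 and between -0.14 and -0.03 elsewhere.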

How the results depend on the processing

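No receptor gene passed an adjusted p of 0.05 under any alternative, or one of 0.1 in the fit of all arrays. Grik4, Grin3b and Grm6 kept their sign under each alternative that held them. Each rests on 1 feature, with the same sign on each array. Leaving out an array, an orientation or the dye term, or summarizing features otherwise, could therefore not turn that sign. The 3 genes kept an unadjusted p under 0.05 without a dye term, under centring, scaling, quantile normalization, the median over features and the robust model. With 1 feature per gene 0 receptor genes had one, beside 709 of all 19083 genes. These 3 single-feature genes have the same values there, as under the median over features, so only the variance shrinkage differs. With features free of recurring values, which leave out these 3 genes, 0 receptor genes had an unadjusted limma p under 0.05, beside 385 of 7546 genes. Quantile normalization let 2 of all genes pass, with Fmr1 at -1.63 (limma adjusted p = 0.0226), and features free of recurring values let 4 pass, with Fmr1 at -1.37 (limma adjusted p = 0.0231). The receptor median was 0.046 on the Cy5 arrays alone and -0.059 on the Cy3 arrays alone. The sign of Gabra6 turned to 0.0011 on centring, 0.0038 on scaling and 0.0022 on quantile normalization. The median over features gave -0.0020 for Gabra3 and -0.013 for Grm5. One feature per gene gave -0.078 for Gabra2, -0.025 for Gabrb2, 0.14 for Gabrg1, 0.084 for Gria1, 0.027 for Gria2, -0.062 for Grm5, -0.11 for Grm7 and 0.054 for Stmn2. Features free of recurring values gave -0.029 for Gabbr1. For these changes of sign the cause was not tested.

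With each array left out in turn, 0 to 87 genes passed the threshold. With the dye term kept these were 25 genes if replicate 1 was left out, 87 for replicate 2, 10 for replicate 3 and 0 for replicate 4. In those fits 1 array stands alone in its orientation and is assumed to vary like the others. For the dye effect 7 to 77 genes passed, against 0 on all arrays. Fmr1 ran from -1.54 to -1.25, passing when replicate 1 (limma adjusted p = 0.0382) or replicate 2 (limma adjusted p = 0.0327) was left out. The receptor median ran from -0.042 to 0.00082. In the fits without a dye term, 1 to 2 of the 40 receptor genes had an unadjusted limma p under 0.05, beside 592 to 670 of all 19083 genes. These were Grin2d when replicate 1 was left out, Grik4 for replicate 2, Grin3b and Grm6 for replicate 3, and Grin3b for replicate 4. Genes whose sign turned had these ranges: Gabbr1 -0.0055 to 0.086, Gabra3 -0.13 to 0.11, Gabra4 -0.30 to 0.055, Gabra6 -0.071 to 0.069, Gabrb1 -0.041 to 0.011, Gabre -0.057 to 0.011, Gabrq -0.25 to 0.11, Gabrr1 -0.15 to 0.086, Gabrr2 -0.076 to 0.22, Gria1 -0.077 to 0.047, Gria4 -0.0060 to 0.060, Grid1 -0.11 to 0.072, Grik2 -0.14 to 0.030, Grik3 -0.12 to 0.014, Grik5 -0.14 to 0.022, Grin2c -0.061 to 0.21, Grin3a -0.11 to 0.069, Grm2 -0.23 to 0.012, Grm4 -0.17 to 0.028, Grm5 -0.037 to 0.069, Grm8 -0.13 to 0.13, Glra4 -0.043 to 0.21, Neto2 -0.0028 to 2.0, Prkca -0.40 to 0.0020 and Slc12a2 -0.11 to 0.35. The number of arrays limits all of these values, and no signal over background was analysed here. The arrays form 1 group and each sets both RNAs against each other, so the fit of the ratios is already paired.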

Other observations

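Among the 7546 genes left when features with any recurring value were dropped, the 4 genes past a limma adjusted p of 0.05 were Fmr1 (-1.37), Krt19, a keratin of simple epithelia (-1.10), Dtna, which encodes dystrobrevin alpha (-1.45), and Srgn, which encodes serglycin (-1.60). They were named after their values had been seen. In that fit 385 genes had an unadjusted p under 0.05, or 5.10%, against 3.77% in the fit on all genes. Recurring values made up 62.8% of the whole deposited table.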
